A study of Mus musculus with 9 samples.

Results

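Ahnak, Ddr1 and Cobll1 were the 3 genes with the largest decrease between vehicle and oxamate plus octyl-L-2HG among the well expressed genes of mouse round spermatids (RS), the haploid cells that follow meiosis in the testis. They are 3 of 55414 genes listed, of 25128 genes tested (at least 10 reads summed over all libraries) and of 10715 well expressed genes (mean normalized count of at least 100), and all 3 passed both filters. Their means were 138 for Ahnak, 108 for Ddr1 and 131 for Cobll1, at percentiles 7.60, 1.76 and 6.48 of the well expressed genes. All 3 thus lay near the lower limit, and a limit above these means would have left them out. Because that decrease chose them, it is given here as a description, without a test. How that decrease divides between the 2 treatment steps, from vehicle to oxamate and from oxamate to oxamate plus octyl-L-2HG, did not directly enter the choice. This is the comparison that was tested, within limits given beside the result.

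RS were sorted by flow cytometry from the testes of adult Stra8-Tom mice, a C57Bl/6 line in which the germ cell driver Stra8-iCre activates a tdTomato reporter, and which the labels list as WT. All groups carried this reporter, and all cells were kept in culture for 24 h at 0.15% DMSO. The paper lists a culture medium with lactate, pyruvate and dialyzed serum for its spermatocytes and names none for RS. The vehicle group (libraries 1 to 3) received DMSO alone, the oxamate group (libraries 4 to 6) received 24 mM oxamate, and the third group (libraries 7 to 9) received 24 mM oxamate with 0.3 mM octyl-L-2HG. No group received octyl-L-2HG alone, so its step was measured only in the presence of oxamate. Polyadenylated RNA was sequenced to 32339533 to 39888396 counted reads per library, with overlapping depth in the 3 groups. Each library differed from the others of its group by more than counting noise. Library 4 stood apart from libraries 5 and 6 (chi-square per degree of freedom of 16.7 and 20.7, against 1.98 between libraries 5 and 6). Each group was incubated in triplicate, but the sources used here do not say whether the cells of a group came from separate mice, so the p-values measure the spread between these incubations only.

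Oxamate is a pyruvate analog that blocks lactate dehydrogenases, among them LDHC, the form restricted to male germ cells. Lactate dehydrogenases can also reduce 2-oxoglutarate to L-2-hydroxyglutarate (L-2HG), a metabolite that competes with 2-oxoglutarate at dioxygenases, including histone and DNA demethylases. Octyl-L-2HG is an ester that enters cells and releases L-2HG. Ahnak encodes a giant scaffold protein of the cell cortex that binds the annexin A2 and S100A10 complex and cortical actin. Ddr1 encodes discoidin domain receptor 1, a receptor tyrosine kinase whose ligands are fibrillar and basement membrane collagens. Cobll1 encodes cordon-bleu WH2 repeat protein like 1, a relative of the actin nucleator Cobl. All 3 proteins are best known from cells other than RS.

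The upstream sequences of Ahnak and Ddr1 are shown because the 2 genes had similar total decreases and reached them by different routes. They are RefSeq sequences on build GRCm38.p6 (not the GRCm39 build of the counts), 5′ to 3′ along the gene's own strand, and capitals mark the GC box GGGCGG or its reverse complement CCGCCC. The Ahnak sequence is the 250 bases before the annotated start site, on the plus strand at chr19:8989034-8989283, and it holds 3 GC boxes. The Ddr1 sequence is the 108 bases of the outermost of 4 promoter windows that lie outside every annotated transcript, on the minus strand at chr17:35704742-35704849, and it holds no GC box. The full 250 bases of that window hold 1 GC box, which is not contained in the 108 bases printed.
Ahnak: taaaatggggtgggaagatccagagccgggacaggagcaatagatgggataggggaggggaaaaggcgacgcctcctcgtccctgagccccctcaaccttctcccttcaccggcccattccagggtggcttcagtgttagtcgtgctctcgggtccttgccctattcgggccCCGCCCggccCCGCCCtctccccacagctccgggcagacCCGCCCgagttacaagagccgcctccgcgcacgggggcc
Ddr1: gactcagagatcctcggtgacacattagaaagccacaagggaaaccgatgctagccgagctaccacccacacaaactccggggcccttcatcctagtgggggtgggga

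Of the 32851 RefSeq windows of 250 bases before a start site, 32.7% held a GC box on either strand. The 4 Ddr1 windows held 1, 0, 1 and 3 GC boxes, and the Cobll1 window, which lies inside a longer annotated transcript and is not printed, held 0. The cyclic AMP response element TGACGTCA (1.55% of windows), its short form TGACGT (6.47%) and the E-box CACGTG (6.02%) were found in no window of the 3 genes. The AP-1 motif TGANTCA (6.75% of windows) occurred 1 time, in a single Ddr1 window, and the TEAD motif GGAATG (12.6%) occurred 1 time, in the Ahnak window. No motif of this set was thus found for all 3 genes. GC content was 66.4% for Ahnak, 54.4% to 78% for the Ddr1 windows and 75.6% for Cobll1.

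Ahnak (ENSMUSG00000069833, chromosome 19) was close to its vehicle level with oxamate and far below it once octyl-L-2HG was added. Its normalized count (reads divided by the authors' size factor for the library) was 179, 207 and 216 in vehicle libraries 1 to 3. With oxamate it was 128, 192 and 186 in libraries 4 to 6, and with both compounds it was 47.2, 38.0 and 44.9 in libraries 7 to 9. Libraries 5 and 6 of the oxamate group lay inside the vehicle range and library 4 below it, whereas every library with both compounds lay below all of the others. The group means were 201 ± 19.0, 169 ± 35.5 and 43.4 ± 4.76 (SD, n = 3 each), so that 83.9% of the vehicle level remained with oxamate and 21.6% with both compounds. Behind these values stood 202, 218 and 236 reads in vehicle, 134, 199 and 170 with oxamate, and 42, 33 and 48 with both compounds. The spread with both compounds (coefficient of variation 11%) was no larger than counting alone gives at that depth (15.6%). It was larger than counting gives in vehicle (9.47% against 6.76%) and with oxamate (21.1% against 7.72%).

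Ddr1 (ENSMUSG00000003534, chromosome 17) stood at a lower level after each step. Its normalized count was 171, 189 and 199 in vehicle, 84.8, 97.2 and 94.3 with oxamate, and 42.7, 41.5 and 52.4 with both compounds. No library of any group overlapped another group, and the order was vehicle, oxamate, both compounds. The means were 186 ± 13.8, 92.1 ± 6.49 and 45.5 ± 6.0 (SD, n = 3 each), which put oxamate at 49.4% and both compounds at 24.4% of vehicle. The reads were 193, 199 and 217, then 89, 101 and 86, then 38, 36 and 56.

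Cobll1 (ENSMUSG00000034903, chromosome 2) lay between Ahnak and Ddr1 in the share of its vehicle level left with oxamate. Its normalized count was 204, 190 and 225 in vehicle, 91.5, 141 and 145 with oxamate, and 64.0, 50.7 and 64.6 with both compounds. The 3 groups did not overlap, although library 4 was again well below the other oxamate libraries. The means were 207 ± 17.5, 126 ± 29.9 and 59.8 ± 7.85 (SD, n = 3 each), or 60.9% of vehicle with oxamate and 28.9% with both compounds. The reads were 230, 201 and 246, then 96, 147 and 132, then 57, 44 and 69. Of all 25128 genes tested, 1.87% had the 3 groups in this descending order without overlap, and for Ddr1 and Cobll1 nothing is read from this share because the choice of genes used 2 of the 3 groups. In 18.5% of genes every library with both compounds lay below every vehicle library, as it did for all 3 genes here.

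**Figure D1:**
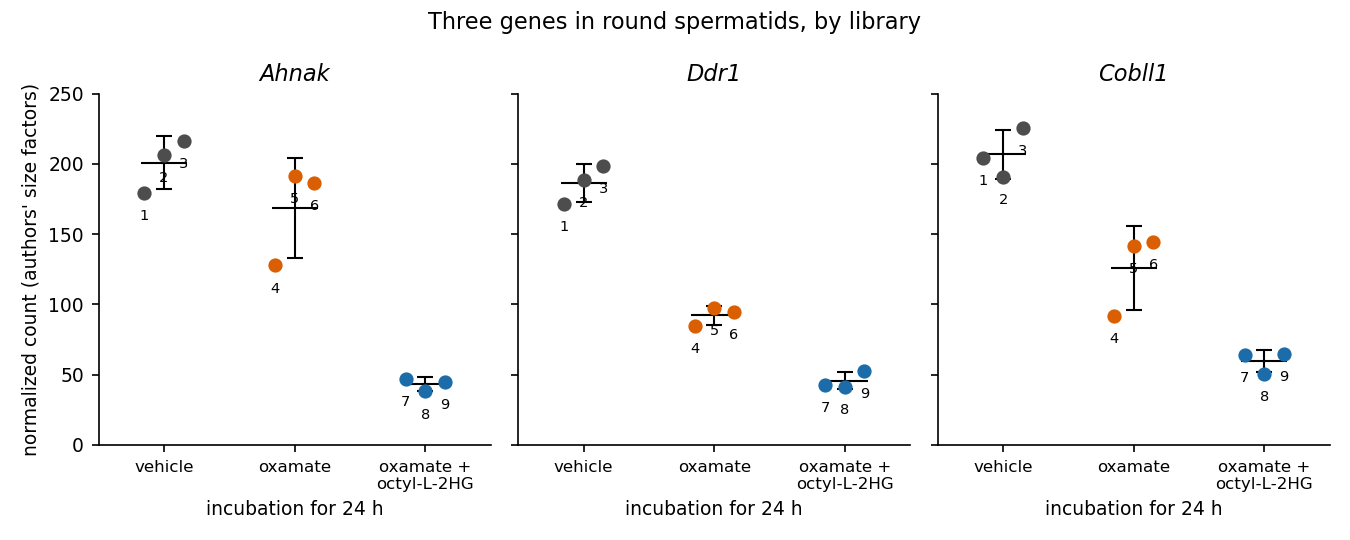
Normalized counts (y axis, linear from 0) of Ahnak, Ddr1 and Cobll1 in each of the 9 libraries, grouped by incubation (x axis); the number under each point is its library and the bars are the group mean ± SD (n = 3). Oxamate points overlap the vehicle points for Ahnak only, and points with both compounds are the lowest for each gene.

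On the log2 scale of the edgeR fit, Ahnak differed by -0.25 (SE 0.13) between oxamate and vehicle and by -1.97 (SE 0.17) between both compounds and oxamate. Ddr1 differed by -1.01 (SE 0.12) and -1.03 (SE 0.15) over the same steps, and Cobll1 by -0.72 (SE 0.14) and -1.09 (SE 0.17). The total differences, which chose the genes, were -2.22, -2.04 and -1.80. The first step therefore held 11.3% of the total log2 difference for Ahnak, 49.6% for Ddr1 and 39.8% for Cobll1. With single libraries left out the share for Ahnak ran from 3.85% (without library 4) to 16.1% (without library 5), that for Ddr1 from 46.6% to 51.7%, and that for Cobll1 from 29.5% (without library 4) to 45.4%. Both steps share libraries with the comparison that chose the genes, and no p-value is given for either step alone. Among well expressed genes the oxamate step placed Ddr1 at rank 1 from the lowest, Cobll1 at rank 9 and Ahnak at rank 456. For the addition of octyl-L-2HG the ranks were 40, 29 and 1.

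Whether the 2 steps differed was tested as the oxamate level against the midpoint of vehicle and both compounds on the log2 scale. The weights of this comparison are orthogonal to those of the total difference, although the oxamate libraries enter the mean used as the expression limit. It also uses the vehicle and both-compound libraries that chose the genes. Its value is independent of the choice only if those groups are equally precise. For Ahnak they were not, with 202 to 236 reads in vehicle and 33 to 48 with both compounds. The choice could thus have raised the Ahnak value, by an amount that was not estimated. A value of 0 means equal steps, and a value above 0 means that the larger part of the decrease came with octyl-L-2HG. For Ahnak oxamate lay 0.86 (SE 0.13) above the midpoint (adjusted p = 0.000363, edgeR quasi-likelihood test, Benjamini-Hochberg over 25128 genes). The second step thus exceeded the first by 1.72 (SE 0.259) on the log2 scale. All 3 oxamate libraries lay above the geometric middle of the vehicle and both-compound means, a normalized count of 93.3. In this comparison 4.40% of genes tested passed the threshold of 0.05 in either direction and 4.05% passed it with oxamate higher, against 0.354% with oxamate lower. Ahnak had the 17th highest value among well expressed genes, and it stayed past the threshold when each of the 9 libraries was left out in turn (0.75 to 1.03).

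For Ddr1 the corresponding value was 0.0079 (SE 0.11), with an adjusted p of 0.988 in the edgeR test. The difference between its steps was 0.016 with a 95% interval from -0.46 to 0.49, so a second step larger or smaller by less than about these amounts could not be seen with 3 libraries a group. Its geometric middle was a normalized count of 92.1, beside an oxamate mean of 92.1. For Cobll1 the value was 0.18 (SE 0.13, adjusted p = 0.559, edgeR), and the difference between its steps was 0.37 with a 95% interval from -0.19 to 0.93. Libraries 5 and 6 lay above its geometric middle of 111 and library 4 lay below. Without library 4 the Cobll1 value was 0.37 and passed the threshold (adjusted p = 0.0470, edgeR, with 0.0470 to 0.897 over the 9 fits that each left out 1 library), so for Cobll1 the call rests on that library, whereas for Ahnak library 4 changed only the size. Without library 4 the difference of Ahnak between oxamate and vehicle was -0.086.

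**Figure D2:**
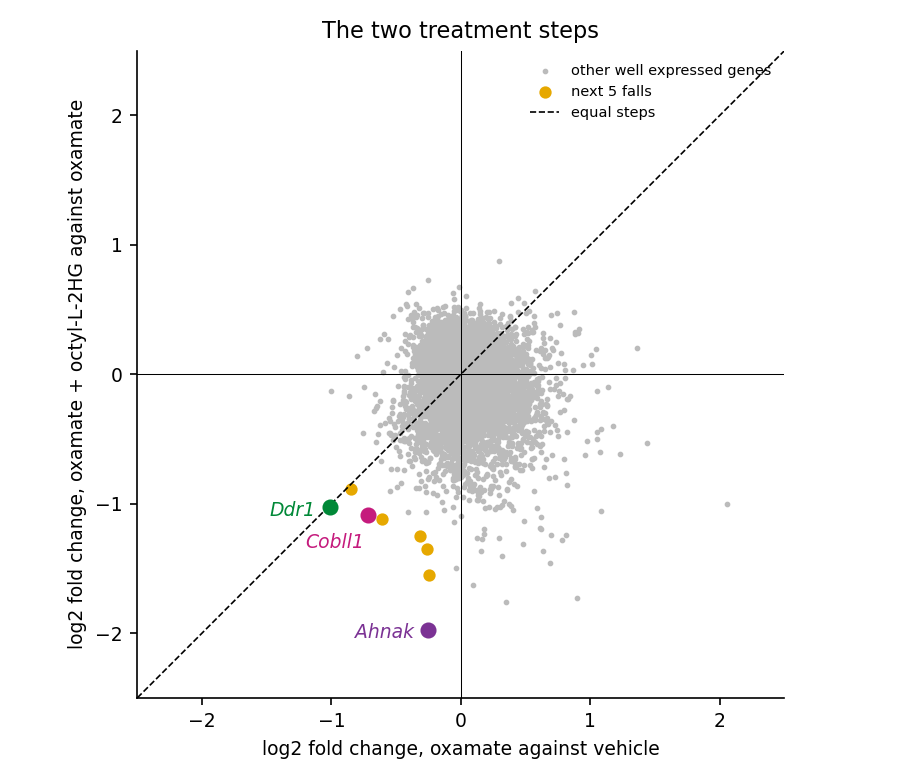
Each point is 1 of 10715 well expressed genes, with the log2 fold change of oxamate against vehicle on the x axis and that of both compounds against oxamate on the y axis; the dashed line marks equal steps. The oxamate libraries enter both axes with opposite sign, so the shape of the cloud is not read; Ddr1 lies on the line, Cobll1 just below it and Ahnak far below it at -0.25 and -1.97.

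The ratio of 2 genes within 1 library does not depend on how libraries are scaled. The log2 ratio of Ahnak to Ddr1 reads was 0.11 ± 0.0354 in vehicle, 0.85 ± 0.225 with oxamate and -0.068 ± 0.19 with both compounds (SD, n = 3 each). In each oxamate library it was at least 0.59, and in no other library did it exceed 0.14. The mean of the oxamate libraries was 0.83 above that of the other 6. The log2 ratio of Ahnak to Cobll1 was -0.043 ± 0.153 in vehicle, 0.43 ± 0.0586 with oxamate and -0.46 ± 0.0567 with both compounds. For this ratio the oxamate libraries, library 4 included, again lay above all others, by 0.68 on average. The ratio of Cobll1 to Ddr1 was 0.15 higher in oxamate libraries, whose range overlapped both other groups. The ratios restate the counts above on a scale free of library scaling, were chosen after the values had been seen, and are given as a description without a test.

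**Figure D3:**
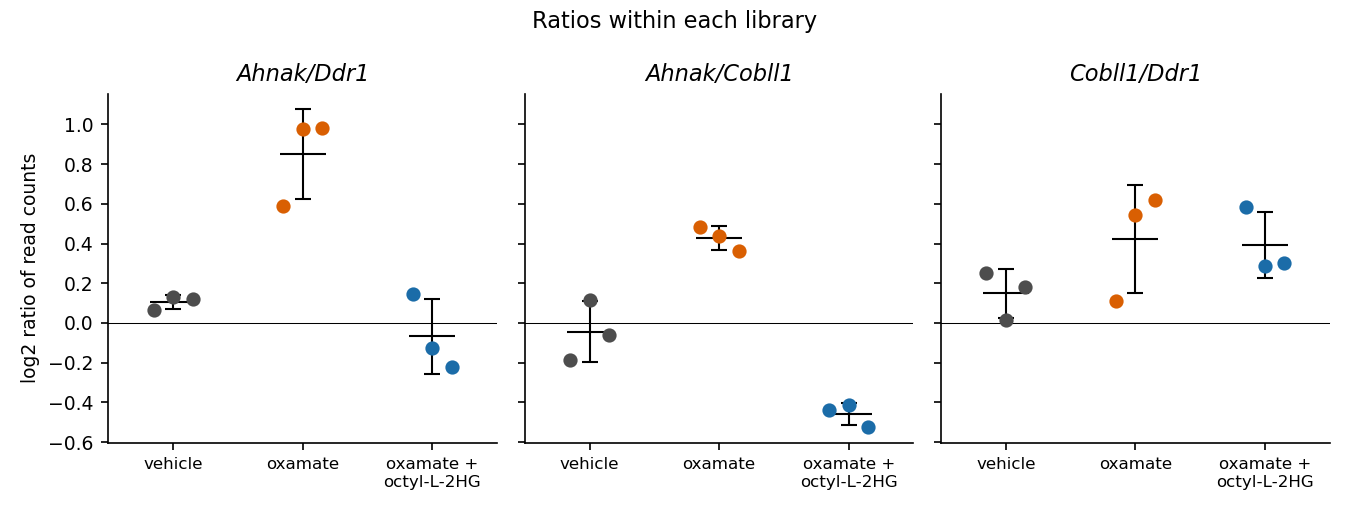
Log2 ratios of read counts between pairs of the 3 genes (y axis) in each library, by incubation (x axis), with the group mean ± SD (n = 3). The ratios of Ahnak to Ddr1 and to Cobll1 are highest in the 3 oxamate libraries, while for Cobll1 to Ddr1 the oxamate libraries overlap both other groups.

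The genes just outside the choice showed both routes. Next in order of total difference were Nrros (-1.79, SE 0.16), Tfcp2l1 (-1.73), Gm49193 (-1.73), 1810024B03Rik (-1.61) and A930030B08Rik (-1.56), beside -1.80 (SE 0.16) for Cobll1, which was inside. Nrros, which encodes a leucine-rich repeat protein of the reactive oxygen and TGF-beta pathways, thus differed from Cobll1 by much less than its error. Nrros had a midpoint value of 0.65 and resembled Ahnak, and the transcription factor gene Tfcp2l1 had 0.020 and resembled Ddr1, while the others had 0.25, 0.54 and 0.47. Below the expression limit, 1 gene with a mean normalized count between 50 and 100 (4930431F10Rik, mean 53.1) had a larger total difference than Cobll1, at -1.91.

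Among the 50 well expressed genes with the largest total decrease, the midpoint value ran from -0.44 (Ssbp2) to 1.05 (Camkk2) with a median of 0.28. In these 50, 18 genes passed the test with oxamate above the midpoint and 1 passed it below, beside 4.05% and 0.354% of all genes tested. The expression limit is a mean over all 9 libraries, so a gene with a high level under oxamate passed it more easily, and nothing is read from these counts. Ahnak ranked 4 from the highest, Cobll1 33 and Ddr1 46, so that Ahnak and Ddr1 stood near opposite ends. Camkk2 encodes a calcium and calmodulin dependent kinase kinase. Its normalized count was 200, 243 and 251 in vehicle, 231, 333 and 319 with oxamate, and 91.0, 92.2 and 82.4 with both compounds. Ssbp2, which encodes a single-stranded DNA binding protein, had 171, 204 and 152, then 80.0, 85.7 and 96.5, then 80.9, 87.6 and 75.8. In Ssbp2 the oxamate libraries were already as low as those with both compounds, a route shown by none of the 3 genes here.

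Per kilobase of the longest annotated transcript, the order of the 3 genes was Ddr1, Cobll1 and Ahnak. In vehicle the normalized count per kilobase was 48.1 ± 3.56 for Ddr1, 41.0 ± 3.47 for Cobll1 and 11.1 ± 1.05 for Ahnak (SD, n = 3 each). With oxamate the levels were 23.8 ± 1.68, 25.0 ± 5.92 and 9.31 ± 1.96, and with both compounds 11.8 ± 1.55, 11.8 ± 1.56 and 2.40 ± 0.263. Ddr1 and Cobll1 were thus within their spread of each other in both treated groups, and Ahnak stayed below them throughout. Over all 9 libraries the level of Ahnak per kilobase was 7.60, at percentile 0.0748 of the well expressed genes, with Ddr1 at percentile 3.66 and Cobll1 at 3.06. The longest Ahnak transcript has 18100 bases, and only 22 well expressed genes have a longer one, while its next longest transcript has 2200 bases. The counts are per gene, so which Ahnak transcript the reads came from was not resolved. In the decile of longest genes (1070 genes) the median midpoint value was 0.035 and the median total difference 0.13, and Ahnak had the 2nd highest midpoint value in it. The part of transcript length in the Ahnak values was not tested. Genes on the opposite strand that overlap Ddr1 (Gm4577) and Cobll1 (Gm13594) had 0 and at most 1 read in any library.

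The genes whose log2 normalized counts followed each of the 3 most closely over the 9 libraries were different for Ahnak and for the other two. For Ahnak these were Asb15 (Pearson r = 0.993), Gabpb1 (0.992), Clmn (0.990), Gm50092 (0.989) and Slc4a2 (0.989). For Ddr1 they were Pex5l (0.990), 1700016P04Rik (0.987), Heatr9 (0.987), Spire1 (0.986) and Rttn (0.986). For Cobll1 they were Heatr9 (0.991), 4930465I24Rik (0.988), Abcg2 (0.988), Galc (0.987) and Pex5l (0.986), of which Heatr9 and Pex5l are shared with Ddr1. Likeness in this sense is of shape and not of size. Asb15, an ankyrin repeat and SOCS box gene, had means of 2240, 2082 and 1574 over vehicle, oxamate and both compounds, and Pex5l, a relative of the peroxisomal import receptor, had 2207, 1828 and 1419. Between the 3 genes r was 0.972 for Ddr1 and Cobll1, 0.946 for Ahnak and Cobll1, and 0.909 for Ahnak and Ddr1. The 9 libraries are 3 groups of 3, so these r values mostly carry the group means, and they are given as a description. Of 10712 other well expressed genes, 187 exceeded r = 0.95 with Ahnak, 97 with Ddr1 and 128 with Cobll1.

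The partners of the 3 proteins did not share their decrease as groups. Between both compounds and vehicle, 18.0% of all 25128 genes tested passed the threshold, 7.48% higher and 10.6% lower, and the median over all of them was -0.045. The share of these calls that were higher was 41.4%, and with total counts as the scaling it was 26.8%. In the AHNAK and annexin list 0 of 15 tested genes rose and 2 fell, with a median of 0.015, and without library 4 the numbers were 1 and 2. Those that fell were Anxa1 (-1.44, SE 0.31) and Anxa4 (-1.01, SE 0.27), calcium dependent membrane binding proteins with mean normalized counts of 25.9 and 23.0, and they are named although they lie below the expression limit for named genes. Anxa2, which encodes the annexin that AHNAK binds, had means of 1592, 1545 and 1633 in vehicle, oxamate and both compounds and a difference of 0.015 (SE 0.076). Its partner S100a10 had 2 reads over all libraries and was not tested. Anxa7 (0.15, SE 0.084) and Anxa11 (-0.21, SE 0.097) did not pass, and the relative Ahnak2 was detected at a mean of only 6.70.

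For DDR1 the ligand and receptor lists were examined. Of 19 tested collagen genes 0 rose and 2 fell (median -0.067), namely the basement membrane chain Col4a4 (-0.43, SE 0.14) and Col6a3 (-0.85, SE 0.21, mean 41.2, named after its value was seen). The collagen gene with the highest count, Col2a1, had means of 3770, 3870 and 3653 and a difference of -0.067 (SE 0.077). Col5a1, at 373, 532 and 387, did not pass between both compounds and vehicle but was the 1 collagen gene that passed the midpoint test (0.50 with oxamate higher, adjusted p = 0.0015, edgeR). Of 10 other collagen receptors 2 rose and 1 fell (median -0.084). The adhesion receptor gene Adgrg1 rose from 84.6 to 201 (1.22, SE 0.12) and the endocytic receptor gene Mrc2 from 21.9 to 48.9 (1.12, SE 0.25). The integrin gene Itga11 fell from 159 to 122 (-0.40, SE 0.12), while Itga1 (0.072, SE 0.07) and Itga2 (-0.17, SE 0.092) did not pass. Ddr2, the other discoidin domain receptor gene, was near the limit of detection with a mean of 6.48.

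Of 11 genes for DDR1 adaptors, interactors and its sheddase, 1 rose and 2 fell between both compounds and vehicle (median 0.031), or 2 and 3 without library 4. The adaptor gene Nck2 fell from a vehicle mean of 229 (-1.13, SE 0.17), and its oxamate mean of 207 lay near vehicle as for Ahnak, but its midpoint value of 0.42 (SE 0.14) did not pass (adjusted p = 0.0922, edgeR). The midpoint test passed for 1 gene of the list, Csk, which encodes a kinase that restrains Src family kinases and is named after its value was seen (0.38, SE 0.088, adjusted p = 0.0142, edgeR). Its means were 287 in vehicle, 370 with oxamate and 291 with both compounds, so unlike Ahnak it was highest with oxamate and back near vehicle with both compounds. Nck1, the paralog of Nck2, rose from 447 to 541 (0.25, SE 0.083). The cell adhesion gene Cdh1 fell from 10.1 to 3.46 (-1.50, SE 0.46), at a level that carries few reads. Crk (-0.027, SE 0.073) and the polarity gene Pard6a (-0.19, SE 0.11) did not pass. Adam10, whose protease can release the DDR1 ectodomain, had means of 12.6, 17.4 and 14.6.

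Around COBLL1, 18 genes for actin regulators with WH2 domains were tested, of which 1 rose and 2 fell (median 0.034). Cobl itself, the namesake, had means of 112, 115 and 113 and a difference of -0.0077 (SE 0.13). Spire1, an actin nucleator gene, fell from 710 to 419 (-0.78, SE 0.083) and passed through 539 with oxamate, with a midpoint value of -0.0033, and it was also among the 5 genes most like Ddr1. Its paralog Spire2 had 1271, 1356 and 1263. Lmod2, a leiomodin gene, had a mean of 6.10 in vehicle and no read with both compounds. Wasf1 rose from 509 to 626 (0.28, SE 0.081) and was highest with oxamate at 720, and the midpoint test passed for it (0.37, adjusted p = 0.00255, edgeR) and for Jmy (0.30, adjusted p = 0.00808, edgeR). Whamm (0.12, SE 0.065) did not pass.

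Of 22 genes for cortical actin and adhesion 2 rose and 2 fell (median 0.0079). Beta-actin (Actb) fell by 0.20 on the log2 scale (SE 0.066), while paxillin (Pxn) rose by 0.41 (SE 0.067) and non-muscle myosin heavy chain Myh10 by 0.28 (SE 0.072). The abundant plectin, gamma-actin and talin 2 genes did not pass, with differences of -0.077 for Plec, -0.048 for Actg1 and 0.11 for Tln2. Over the 6 lists 10.5% to 30.0% of the tested genes passed between both compounds and vehicle, on both sides of the 18.0% over all genes. Between oxamate and vehicle, where 5.19% of all genes tested passed, 0 to 3 genes of each list did, and between both compounds and oxamate, where 11.2% passed, 0 to 3 did.

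Because the 3 genes are best known from other cells, their reads were set beside markers of the cell types a testis sort could hold. In CPM (reads per 1000000 counted reads, TMM scaled), Ahnak was at 5.00 to 5.97 in vehicle, 3.59 to 5.34 with oxamate and 1.04 to 1.29 with both compounds. Ddr1 was at 4.77 to 5.49, 2.38 to 2.71 and 1.13 to 1.45, and Cobll1 at 5.34 to 6.22, 2.57 to 4.01 and 1.39 to 1.78. The 9 RS markers summed to 2249 to 2332 CPM in vehicle, 2188 to 2254 with oxamate and 2107 to 2149 with both compounds, and the 9 spermatocyte markers to 301 to 362, 300 to 324 and 334 to 345. RS genes were thus detected at high level in every library, as labelled. Within the RS list 2 genes rose (Acrv1 and Acr) and 5 fell between both compounds and vehicle, with the protamine gene Prm1 (-0.77) and the transition protein gene Tnp1 (-0.56) lowest. Thus 77.8% of the list passed, beside 18.0% of all genes tested. All 9 had mean normalized counts of at least 3808.5, so the 2 shares come from unlike levels. In bulk samples fewer cells of a type and less RNA per cell cannot be told apart.

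The 8 Sertoli markers with reads, of 9 listed, summed to 2.20 to 2.66 CPM in vehicle, 1.97 to 2.87 with oxamate and 1.98 to 2.30 with both compounds, and of the 9 listed 4, Gata4 and Fshr included, had under 10 reads over all libraries. The 7 Leydig markers summed to 0.823 to 1.09, 0.638 to 0.830 and 0.913 to 1.14 CPM, with Hsd3b1, Hsd3b6 and Insl3 under 10 reads. The 9 spermatogonial markers (14.1 to 14.9, 13.8 to 14.5 and 13.7 to 15.6 CPM) and the 6 leukocyte markers with reads, of 7 listed (4.20 to 5.06, 3.86 to 3.94 and 3.74 to 4.45) also overlapped between vehicle and both compounds. As for the RS markers above, sums with both compounds lay below those in vehicle for the 9 peritubular myoid and fibroblast markers (4.08 to 4.91, 4.12 to 4.46 and 3.28 to 3.58 CPM). The same was measured for the 6 endothelial markers (14.9 to 16.2, 15.3 to 15.5 and 12.2 to 13.5). In the myoid list 1 gene fell, Cnn1 (-1.52, SE 0.24), while Acta2 (0.14, SE 0.24) and Tagln (-0.047, SE 0.16) did not pass. The share of that list that passed was 11.1%, beside 18.0% of all genes tested. Cnn1 also had the largest difference in normalized count in the list, from 44.4 in vehicle to 15.5 with both compounds. In the endothelial list Vwf fell (-0.52, SE 0.094), Kdr rose (0.44, SE 0.13), and Pecam1 (0.18, SE 0.27) did not pass. The share that passed in this list was 33.3%. Vwf had the highest count of the list, with means of 413 in vehicle and 292 with both compounds, and so weighs most in its sum. The part of myoid or endothelial cells in the 3 decreases was not tested.

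**Figure D4:**
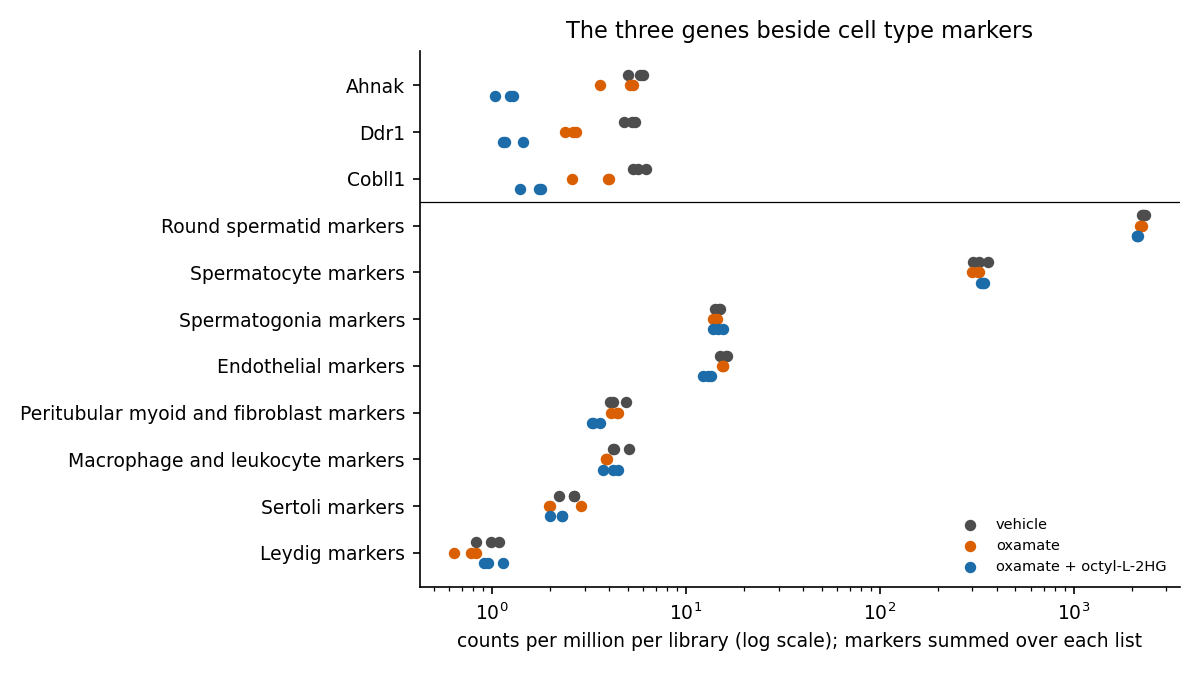
CPM on a log axis (x) for the 3 genes and for the summed markers of 8 cell types (y), 1 point per library, coloured by incubation. The 3 genes range from 1.04 to 6.22 CPM, while the RS marker sum lies between 2107 and 2332 CPM and the Leydig marker sum between 0.638 and 1.14 CPM.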

How the data were processed

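The authors trimmed reads with cutadapt (2.10), aligned them with TopHat2 (2.1.1) to a mouse genome (GRCm39 in the labels), counted reads per gene with HTSeq (2.01) and deposited raw counts. They also deposited normalized counts (a signal, the counts divided by DESeq2 1.36.0 size factors, 0.867 to 1.13). The strand setting of the counting is not given in the sources used here. The authors' own fold change and p-value columns were not used.

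From the counts, 1 edgeR (4.0.16, R 4.3.3) quasi-likelihood fit with TMM scaling covered 25128 genes with at least 10 reads over 9 libraries and had the group as its only term. P-values were adjusted by Benjamini-Hochberg over all genes tested, with a threshold of 0.05. Alternatives used DESeq2 (1.42.0), other scalings and filters, and leaving out each library. Scripts were tested on simulated data. Lengths and promoter windows came from GRCm38 annotation (99.8% of well expressed genes matched by identifier), since a GRCm39 annotation was not used here. Named genes were the 3 members, the next 5 by decrease, the 5 most correlated with each (log2 of normalized count plus 1), and in each list the 3 with the highest count and up to 4 well expressed genes that passed with the largest change between both compounds and vehicle. Other genes named in the text were chosen after their values were seen. One of the genes covered by this rule is not reported here. The members and lists were chosen with earlier results of these data known. The spread expected from counting covers counting error only, whereas the 95% intervals come from the edgeR fit and include the spread between libraries.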

Additional observations from a re-analysis of the deposited data

How the results depend on the processing

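Ahnak kept its direction and its call against the midpoint under every alternative run, at 0.84 to 0.87 under the 5 other scalings, filters and tests and 0.75 to 1.03 when libraries were left out singly. Ddr1, at 0.0079 and not called, took the opposite sign with DESeq2 size factors (-0.0070), with no filter on low counts (-0.015) and in the DESeq2 Wald test (-0.0056), and ranged from -0.034 to 0.073 with libraries left out, uncalled in each. Cobll1 ranged from 0.082 to 0.37 with libraries left out and was called in 1 of 9 fits, that without library 4. By total decrease Cobll1 ranked 3 to 5 with libraries left out and 4 when the expression limit was 50. Leaving out single libraries moved the number of genes called from 1106 to between 401 (without library 5) and 2292 (without library 4) against the midpoint, from 1303 to between 659 (without library 2) and 2288 (without library 4) for oxamate against vehicle, from 2823 to between 1396 (without library 7) and 4415 (without library 4) for both compounds against oxamate, and from 4534 to between 2970 (without library 7) and 6194 (without library 4) for both compounds against vehicle; the cause was not tested. The share of calls that were higher, 92.0% against the midpoint, was 79.0% with no filter and 77.0% in DESeq2. For both compounds against oxamate it was 28.3%, and 37.7%, 14.3%, 44.3% and 43.0% with DESeq2 size factors, total counts, no filter and DESeq2. For both compounds against vehicle it was 41.4%, and 26.8% with total counts and 52.6% with no filter. No paired analysis was run, because libraries are numbered in sequence and the sources used here do not say whether libraries of different groups were matched. With 33 to 246 reads per gene and library, small differences between steps could not be seen.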
